A study of Rattus norvegicus with 2 samples.

Results

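Glutathione transferases and the partner redox enzymes Gpx4 and Nqo1 were examined in H9c2 cells, a myoblast line from embryonic rat heart. The 6 genes, Gstp1, Gstm1, Gsta1, Gsta4, Gpx4 and Nqo1, were found by matching the gene identifiers of the expression files to rat gene symbols, and all 6 were among the 8039 listed entries. They were chosen by their FPKM in these same 2 libraries, with the difference between high and control phosphate already known, so their differences are given as a description and none of them was tested. The high phosphate culture received 2.5 mM phosphate and the control culture 0.9 mM phosphate, each for 12 h in DMEM without serum. Both had been grown in medium with 10% fetal bovine serum. Each phosphate level had 1 library, so no value has a replicate error and no p-value could be formed. Expression is given as FPKM, sequenced fragments corrected for the length of a gene's transcript and the total of mapped fragments. The depth behind each value is unknown.

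Glutathione transferases join the tripeptide glutathione to reactive electrophiles, which makes them soluble and ready for export. The cytosolic enzymes fall into classes, of which alpha (Gsta1 and Gsta4), mu (Gstm1) and pi (Gstp1) are represented here. Gpx4 is the selenium-containing peroxidase that uses glutathione to reduce lipid hydroperoxides within membranes and so restrains ferroptosis. Nqo1 is a flavoprotein that reduces quinones without releasing semiquinone radicals. Many of these genes are known targets of NRF2, a transcription factor released from KEAP1 under oxidative or electrophilic stress, and Nqo1 is also a classical target of the aryl hydrocarbon receptor.

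All 4 transferases were listed at higher FPKM in the high phosphate library than in the control library, and both Gpx4 and Nqo1 were lower. Differences are given as log2((high phosphate FPKM + 1)/(control FPKM + 1)), a scale on which the added 1 shrinks the differences of low genes. They were computed for 4366 measured genes, those with a mean of at least 1 FPKM over both libraries, and all 6 genes passed this filter. On this scale 1 of the 6, Gpx4, was at least 2-fold apart, against 2.63% of all measured genes. Among all measured genes, 50.5% were higher by any amount and 49.4% were lower. When both libraries were rescaled to an equal FPKM sum, 32.2% were higher and 67.8% were lower, and the counts given below for that rescaling are to be read against these shares. At a 1.5-fold threshold Gsta1 and Gsta4 were higher, against 7.21% of all measured genes, and Nqo1 and Gpx4 were lower, against 3.37%. Together they were 4 of the 6, beside 10.6% of all measured genes in either direction. Because these genes were proposed with their ratios in view, nothing is read from those shares.

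**Figure D1:**
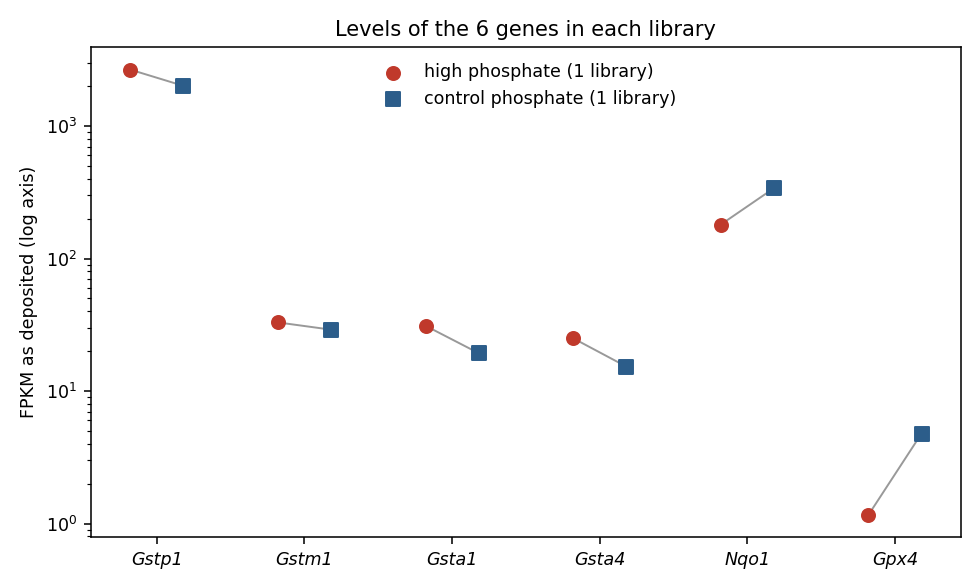
FPKM as deposited (log axis) of the 6 genes in the high phosphate library (circles) and the control library (squares), 1 library each. The 4 transferases sit higher in high phosphate, Gstp1 with 2666 against 2011 FPKM, whereas Nqo1 and Gpx4 sit lower, Nqo1 with 180 against 340 FPKM.

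The pi class enzyme Gstp1 dominated the transferases. Its level was 2666 FPKM in the high phosphate library and 2011 FPKM in the control library, a ratio of 1.33 (log2 ratio 0.41). It was the 15th most abundant measured gene in high phosphate and the 16th in the control. Gstp1 supplied 96.8% of the summed FPKM of the 4 transferases in high phosphate and 96.9% in the control, so the sum followed it, at 2755 FPKM in high phosphate and 2075 FPKM in the control. Its difference lay within the central 95% of genes within 2-fold of its mean level, which ran from -0.02 to 0.79 over 47 genes.

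The alpha class enzymes Gsta1 and Gsta4 had nearly the same difference. Gsta1 was listed at 31.1 FPKM in high phosphate and 19.3 FPKM in the control (log2 ratio 0.66). Gsta4, which is known for conjugating the lipid peroxidation product hydroxynonenal, was listed at 25.03 FPKM in high phosphate and 15.3 FPKM in the control (log2 ratio 0.67). Their levels stood in the ratio 1.24 in high phosphate and 1.26 in the control, so the proportion between the pair was nearly the same. Among all measured genes their log2 ratios ranked 246th and 234th from the highest, and both lay within the central 95% of genes of like level, which reached 0.74 for Gsta1 and 0.75 for Gsta4. In the gene table used for names, the entry called Gsta1 also carries the older names Gsta3, Gsta5 and Yc1, so symbols of alpha class genes in other sources may denote another entry.

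The mu class enzyme Gstm1 differed least. It was listed at 33.0 FPKM in high phosphate and 29.1 FPKM in the control (log2 ratio 0.18). Rescaling both libraries to the same FPKM sum moved the median log2 ratio of all measured genes to -0.15, and Gstm1 then stood at 0.01. Gstm1 was above both alpha class genes in each library. The ratio of Gsta1 to Gstm1 was 0.943 in high phosphate and 0.665 in the control. Without replicates no spread is available to say which of these neighbouring levels differ.

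Nqo1 was the second most abundant of the 6 genes. Its level was 180 FPKM in the high phosphate library and 340 FPKM in the control library, a ratio of 0.531 (log2 ratio -0.91). It ranked 48th from the lowest log2 ratio among all measured genes, and by level it ranked 259th in high phosphate and 128th in the control. Genes within 2-fold of its mean level had a central 95% from -0.43 to 0.83 over 232 genes, and Nqo1 lay below that range. After rescaling to the same FPKM sum its log2 ratio was -1.08, past the 2-fold threshold.

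Gpx4 had the lowest level and the lowest log2 ratio of the 6. It was listed at 1.16 FPKM in high phosphate and 4.78 FPKM in the control (log2 ratio -1.42, and -2.04 without the added 1). It ranked 19th from the lowest of all measured genes, of which 0.87% were at least 2-fold lower, and genes of like level had a central 95% from -0.86 to 0.97. The gene is known to give mitochondrial, cytosolic and nuclear forms of the enzyme, and the RefSeq table lists 3 curated transcripts for it. No source used here says how fragments were divided among them, and whether a failed estimate lies behind the low values of Gpx4 was not tested. With the filter raised to a mean of 5 FPKM, Gpx4 was no longer among the genes compared.

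**Figure D2:**
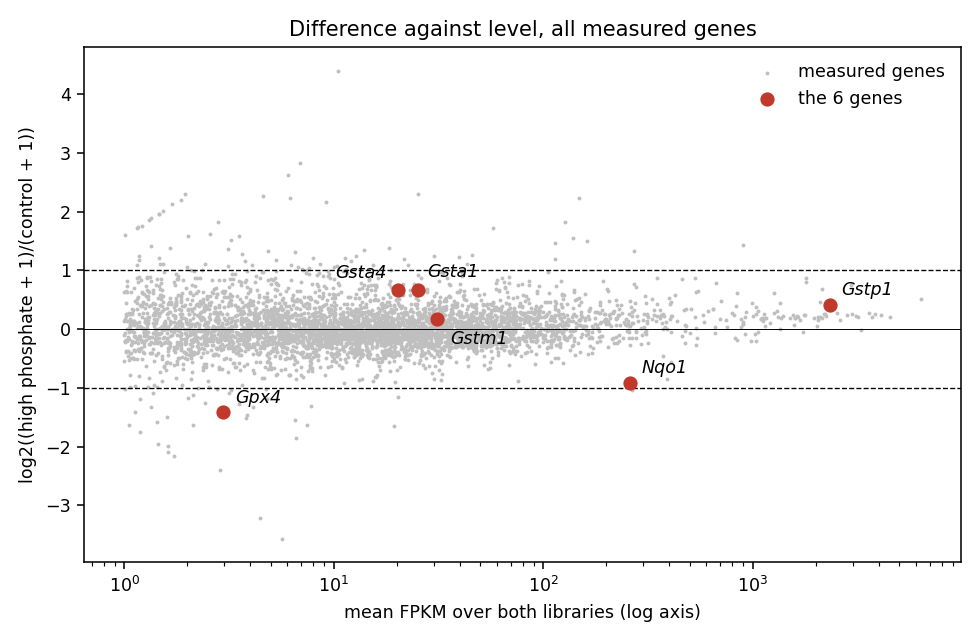
Log2 ratio of high phosphate over control FPKM (with 1 added to each) against the mean FPKM of both libraries (log axis) for the 4366 measured genes in grey, with the 6 genes in red and dashed lines at 2-fold. Gpx4 at -1.42 and Nqo1 at -0.91 lie at the lower edge of the genes around them, and the 4 transferases lie between 0.18 and 0.67.

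Ratios between genes of 1 library do not depend on how the libraries were scaled to each other. Gstp1 stood 14.8 times above Nqo1 in the high phosphate library and 5.92 times above it in the control library. Gsta1 was 0.172 of Nqo1 in high phosphate and 0.0569 in the control, and Gsta4 was 0.139 and 0.0451 of it in the same libraries. For all 4 transferases the ratio to Nqo1 was higher in high phosphate, by 2.14-fold for Gstm1, 2.5-fold for Gstp1, 3.03-fold for Gsta1 and 3.08-fold for Gsta4. Set against Gpx4, the 4 ratios were higher in high phosphate by 4.67-fold for Gstm1 to 6.74-fold for Gsta4. These last factors rest on the low FPKM of Gpx4. The median gap in log2 FPKM ratio was 1.46 between the transferases and Nqo1 and 2.59 between the transferases and Gpx4, and with 1 added to each FPKM the gaps were 1.45 and 1.96. Nqo1 itself was 156 times Gpx4 in high phosphate and 71.1 times Gpx4 in the control.

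**Figure D3:**
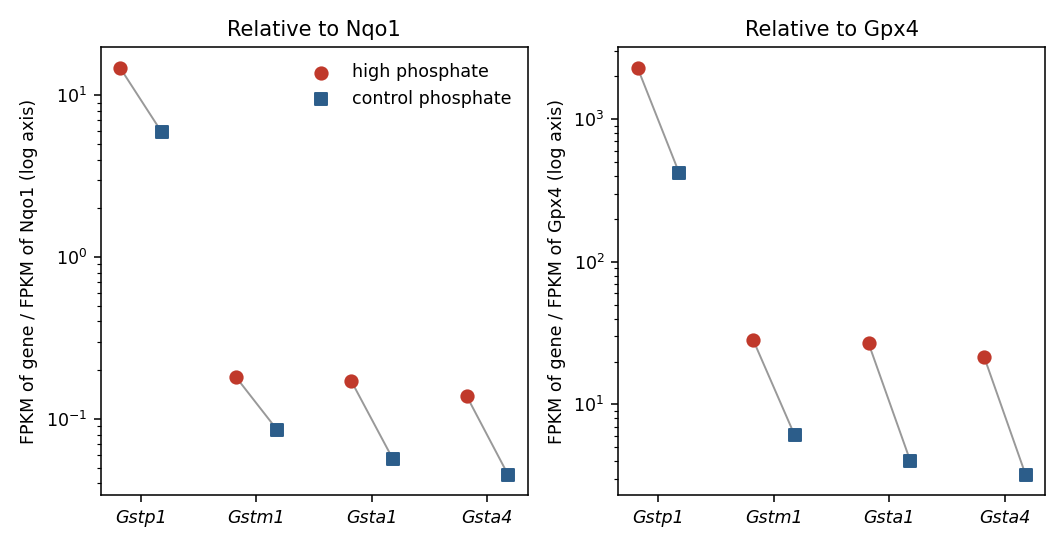
FPKM of each transferase divided by the FPKM of Nqo1 (left) or Gpx4 (right) within the same library (log axes), for the high phosphate library (circles) and the control library (squares). Each of the 8 ratios is higher in high phosphate, and Gstp1 over Nqo1 is 14.8 against 5.92.

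Sequence upstream of the start sites is shown for the pi and alpha class transferases and for Nqo1. Gstm1, which also takes part in the contrast with Nqo1, and Gpx4 were searched in the same way, but their sequences are not shown. The sequences are the 250 bases before the annotated start from the RefSeq promoter table, build GRCr8, written 5′ to 3′ on the gene's strand. Capitals mark matches on either strand to TGACNNNGC, the core bound by NRF2 with its small MAF partners, and to GCGTG, the core bound by the aryl hydrocarbon receptor.
Gstp1, chr1:210769706-210769955, minus strand: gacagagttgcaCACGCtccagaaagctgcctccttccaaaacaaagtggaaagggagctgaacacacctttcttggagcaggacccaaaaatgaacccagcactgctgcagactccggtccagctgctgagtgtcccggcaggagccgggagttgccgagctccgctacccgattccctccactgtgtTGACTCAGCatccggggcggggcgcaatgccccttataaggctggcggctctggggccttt
Gsta1, chr9:31216533-31216782, minus strand: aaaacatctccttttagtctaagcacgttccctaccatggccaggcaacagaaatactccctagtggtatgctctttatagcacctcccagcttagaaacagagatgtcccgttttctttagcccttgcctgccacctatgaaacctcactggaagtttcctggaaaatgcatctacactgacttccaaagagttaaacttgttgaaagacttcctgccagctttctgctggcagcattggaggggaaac
Gsta4, chr8:87947015-87947264, plus strand: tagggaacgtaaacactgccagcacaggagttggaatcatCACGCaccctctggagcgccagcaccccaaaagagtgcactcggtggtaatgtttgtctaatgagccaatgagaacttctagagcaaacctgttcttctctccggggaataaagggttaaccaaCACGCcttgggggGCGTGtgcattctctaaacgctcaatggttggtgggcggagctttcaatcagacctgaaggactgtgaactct
Nqo1, chr19:52220268-52220517, minus strand: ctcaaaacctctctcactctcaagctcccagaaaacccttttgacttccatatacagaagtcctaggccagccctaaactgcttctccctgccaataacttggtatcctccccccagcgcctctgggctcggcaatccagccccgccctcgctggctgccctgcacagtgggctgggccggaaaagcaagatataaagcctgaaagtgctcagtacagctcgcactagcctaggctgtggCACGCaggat

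Of these windows, that of Gstp1 held the NRF2 core letters, as TGACTCAGC from 61 to 53 bases before the start. The match overlaps TGACTCA, the palindromic letters of the AP-1 motif TGANTCA. Over all 33469 windows of this length in the table, 10.1% held TGACNNNGC, 6.34% held TGANTCA and 25.9% held GCGTG. The GCGTG letters occurred 3 times in the Gsta4 window and once each in the Gstp1 and Nqo1 windows, where the Nqo1 match lay 10 to 6 bases before the start. The Gsta1 window held neither core. The windows of Gstm1 and of the 3 annotated Gpx4 starts held no TGACNNNGC, and each of the Gpx4 windows, of which the first and second overlap, held GCGTG. A match describes letters in a short window and is not a measured binding site. Sequence beyond these 250 bases was not searched, so a window without a match does not show that a gene lacks the motif.

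Other glutathione transferases were sparsely listed. Of 24 cytosolic and mitochondrial genes written for this list, 10 were listed and 5 measured, with 4 higher and 1 lower under all 4 rescalings of the libraries and none 2-fold apart. Their median log2 ratio was 0.37, beside 0.00 for all measured genes, and 0.10 over all listed genes of the list without the filter on low values. Gstm7, another mu class gene, had 6.78 FPKM in high phosphate and 3.92 FPKM in the control. The theta class gene Gstt1 had 7.45 FPKM in high phosphate and 5.36 FPKM in the control, and Gstz1, which also isomerizes maleylacetoacetate in tyrosine breakdown, had 6.34 and 5.23 FPKM in the same libraries. The exception was the omega class gene Gsto1, whose level of 182 FPKM in high phosphate and 225 FPKM in the control made it the most abundant of these 5. Gsto1 was thus the 1 measured transferase, out of these 5 and the 4 described above, that was lower in high phosphate.

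Transferase genes lie in clusters. In the gene order of the GRCr8 table, Gstm4 follows Gstm1 directly and had 15.8 FPKM in high phosphate and 12.0 FPKM in the control (log2 ratio 0.37). Within 6 genes on the other side, Gstm7 and Gstm6l were listed, the last of these at 0.07 FPKM in high phosphate and 0.06 FPKM in the control. Gsta3 and Gsta6, which flank Gsta1, were listed at 0.06 and 0.09 FPKM in high phosphate and at 0.08 and 0.00 FPKM in the control. Gstp3, next to Gstp1, was listed at 0.00 FPKM in high phosphate and 0.15 FPKM in the control. Gsta1 and Gstp1 were thus each listed beside neighbours near 0, whereas 3 genes of the mu cluster were measured. Gsta4 lies on another chromosome, and its neighbours Gsta5 and Gsta2 were not compared. Members of a cluster are similar in sequence, and no source used here says how fragments that match several of them were assigned, so the split between cluster members is uncertain.

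Membrane-bound transferases belong to a separate protein family. Mgst3, which acts on leukotriene and lipid hydroperoxide substrates, had 18.3 FPKM in high phosphate and 7.18 FPKM in the control (log2 ratio 1.24). Mgst1, the liver-type microsomal enzyme, had 101 FPKM in high phosphate and 86.7 FPKM in the control (log2 ratio 0.22). Of 6 genes written, these 2 were measured. Mgst3 was at least 2-fold higher as deposited and under all 4 rescalings. Among all measured genes, 1.76% were at least 2-fold higher as deposited.

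The 3 other measured glutathione peroxidases were listed well above Gpx4, while Gpx3, the secreted enzyme, was below it at 0.24 FPKM in high phosphate and 0.07 FPKM in the control. Gpx8 and Gpx7, peroxidases of the endoplasmic reticulum, had 255 and 188 FPKM in high phosphate and 242 and 146 FPKM in the control. Gpx1, the abundant cytosolic enzyme, had 65.3 FPKM in high phosphate and 60.3 FPKM in the control. All 3 measured genes were higher as deposited, while after rescaling to the same sum Gpx1 and Gpx8 turned to log2 ratios of -0.06 and -0.09. Gpx4 depends on selenocysteine, and the list of selenoproteins and their synthesis had 2 of 5 measured genes higher and 3 lower, with a median of -0.01. Its largest difference was that of Selenoo, a mitochondrial selenoprotein, with 5.94 FPKM in high phosphate and 8.19 FPKM in the control. Selenok, of the endoplasmic reticulum, had 58.2 FPKM in high phosphate and 49.1 FPKM in the control.

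Genes on both sides of the Gpx4 reaction were also described. In the list of lipid peroxidation and iron, 5 of 6 measured genes were higher as deposited, and 3 of 6 with both libraries rescaled to the same sum. Tfrc, the transferrin receptor that takes up iron, had 14.6 FPKM in high phosphate and 22.0 FPKM in the control. Fth1, the ferritin heavy chain that stores iron, had 3246 FPKM in high phosphate and 2730 FPKM in the control. In the list of glutathione synthesis and recycling, 5 of 7 measured genes were higher and 2 lower, with a median of 0.33 that turned to -0.02 with the filter raised to a mean of 5 FPKM. Ggt5, which cleaves extracellular glutathione conjugates, had 1.99 FPKM in high phosphate and 0.70 FPKM in the control, and Oplah, which opens oxoproline to glutamate, had 2.76 and 1.52 FPKM in the same libraries. Slc3a2, the heavy chain of the cystine importer, had 89.6 FPKM in high phosphate and 119 FPKM in the control. Ligase subunits, glutathione synthetase and glutathione reductase, encoded by Gclc, Gclm, Gss and Gsr, were in the written list, but no usable identifier matched them.

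Glutathione conjugates leave the cell through ABCC transporters and are trimmed to mercapturates. In this list 3 of 7 measured genes were higher and 4 lower, with a median log2 ratio of -0.16. The exporter Abcc1 had 1.55 FPKM in high phosphate and 2.39 FPKM in the control. Dpep1, a dipeptidase that trims glutathione conjugates, had 19.3 FPKM in high phosphate and 15.4 FPKM in the control.

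Genes known to respond to the aryl hydrocarbon receptor, to which Nqo1 belongs, were few. Of 4 measured genes, 3 were lower as deposited and all 4 when the libraries had equal FPKM sums, with a median log2 ratio of -0.74. Aldh3a1, an aldehyde dehydrogenase, had 1.65 FPKM in high phosphate and 4.65 FPKM in the control (log2 ratio -1.09). Ahrr, the repressor of the receptor, had 1.78 FPKM in high phosphate and 4.72 FPKM in the control (log2 ratio -1.04). Tiparp, a mono-ADP-ribosyltransferase that restrains the receptor, had 12.4 FPKM in high phosphate and 17.1 FPKM in the control. Aldh3a1 and Ahrr were at least 2-fold lower as deposited and under all 4 rescalings, beside 0.87% of all measured genes as deposited and 1.31% with equal FPKM sums. Being lower by any amount held for 49.4% of all measured genes as deposited and 67.8% with equal sums, and Aldh3a1 and Ahrr were under 5 FPKM in both libraries. Cyp1a1, the best known target, was listed at 0.08 FPKM in high phosphate and 0.21 FPKM in the control. No usable identifier matched the receptor gene Ahr.

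Other NRF2 targets did not share 1 direction. Of 11 measured genes, 6 were higher and 5 lower as deposited, and 3 were higher and 8 lower after rescaling to the same sum, with a median of 0.04 as deposited. Hmox1, the heme oxygenase that breaks down heme, had 140 FPKM in high phosphate and 70.8 FPKM in the control (log2 ratio 0.98). Blvrb, the biliverdin reductase that acts on heme breakdown products, had 118 FPKM in high phosphate and 96.4 FPKM in the control. At the lower end stood Aldh3a1 and Tkt, a transketolase of the pentose phosphate pathway, with 0.64 FPKM in high phosphate and 2.23 FPKM in the control. Hmox1 and Nqo1, both standard readouts of NRF2, thus lay on opposite sides. In the list of NRF2 control, 1 of 3 measured genes was higher and 2 were lower as deposited, and all 3 were lower after rescaling to the same sum. No usable identifier matched Nfe2l2, which encodes NRF2. Sqstm1, an adaptor that sequesters KEAP1, had 151 FPKM in high phosphate and 184 FPKM in the control.

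The thioredoxin, peroxiredoxin and glutaredoxin list had 6 of 10 measured genes higher and 4 lower as deposited, and 3 higher and 7 lower after rescaling to the same sum. Prdx2, a cytosolic peroxiredoxin, had 10.6 FPKM in high phosphate and 6.29 FPKM in the control. Txnip, the thioredoxin inhibitor, had 139 FPKM in high phosphate and 103 FPKM in the control. The reductases were lower, with Txnrd2, the mitochondrial form, at 5.9 FPKM in high phosphate and 9.57 FPKM in the control, and Txnrd1, the cytosolic form, at 53.4 and 66.8 FPKM in the same libraries. Prdx1, the most abundant of the list, had 765 FPKM in high phosphate and 744 FPKM in the control. Among superoxide dismutases and catalase, 1 of 3 measured genes was higher and 2 were lower. Sod1 had 778 FPKM in high phosphate and 861 FPKM in the control, catalase (Cat) 19.3 and 22.7 FPKM, and the copper chaperone Ccs 72.6 and 65.4 FPKM in the same libraries, with Ccs at -0.02 after rescaling to the same sum.

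Among other quinone, carbonyl and aldehyde enzymes, the functional relatives of Nqo1, 6 of 12 measured genes were higher and 6 lower as deposited, and 2 were higher and 10 lower after rescaling to the same sum. Besides Aldh3a1, none was 2-fold apart in either setting. Por, the cytochrome P450 reductase, had 12.1 FPKM in high phosphate and 7.91 FPKM in the control. Ptgr1, which reduces prostaglandins and unsaturated aldehydes, had 47.2 FPKM in high phosphate and 66.4 FPKM in the control. The aldose reductase Akr1b1, the most abundant of the list, had 206 FPKM in high phosphate and 242 FPKM in the control. Nqo2, the closest relative of Nqo1, was in the written list but matched no usable identifier.

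NADPH serves Nqo1 and glutathione reductase. In the NADPH supply list, 5 of 9 measured genes were higher and 4 lower as deposited, and 3 were higher and 6 lower after rescaling to the same sum. By log2 ratio the isocitrate dehydrogenases stood highest of this list, at 1.21 for Idh1 and 0.65 for Idh2. Mitochondrial Idh2 had 248 FPKM in high phosphate and 157 FPKM in the control, and cytosolic Idh1 had 2.45 and 0.49 FPKM in the same libraries. Idh1 thus passed the filter on low values only through the library in which it was higher. Taldo1, the transaldolase, had 263 FPKM in high phosphate and 291 FPKM in the control. Among oxidant producing enzymes 2 of 3 measured genes were higher as deposited, against 1 of 3 with equal FPKM sums. Cyba, a subunit shared by NADPH oxidases, had 89.9 FPKM in high phosphate and 69.2 FPKM in the control, and Nox1 had 2.23 and 3.38 FPKM in the same libraries. The metallothioneins Mt1 and Mt2A, thiol-rich metal binders, were both higher, with 148 and 35.4 FPKM in high phosphate and 97.1 and 29.6 FPKM in the control.

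**Figure D4:**
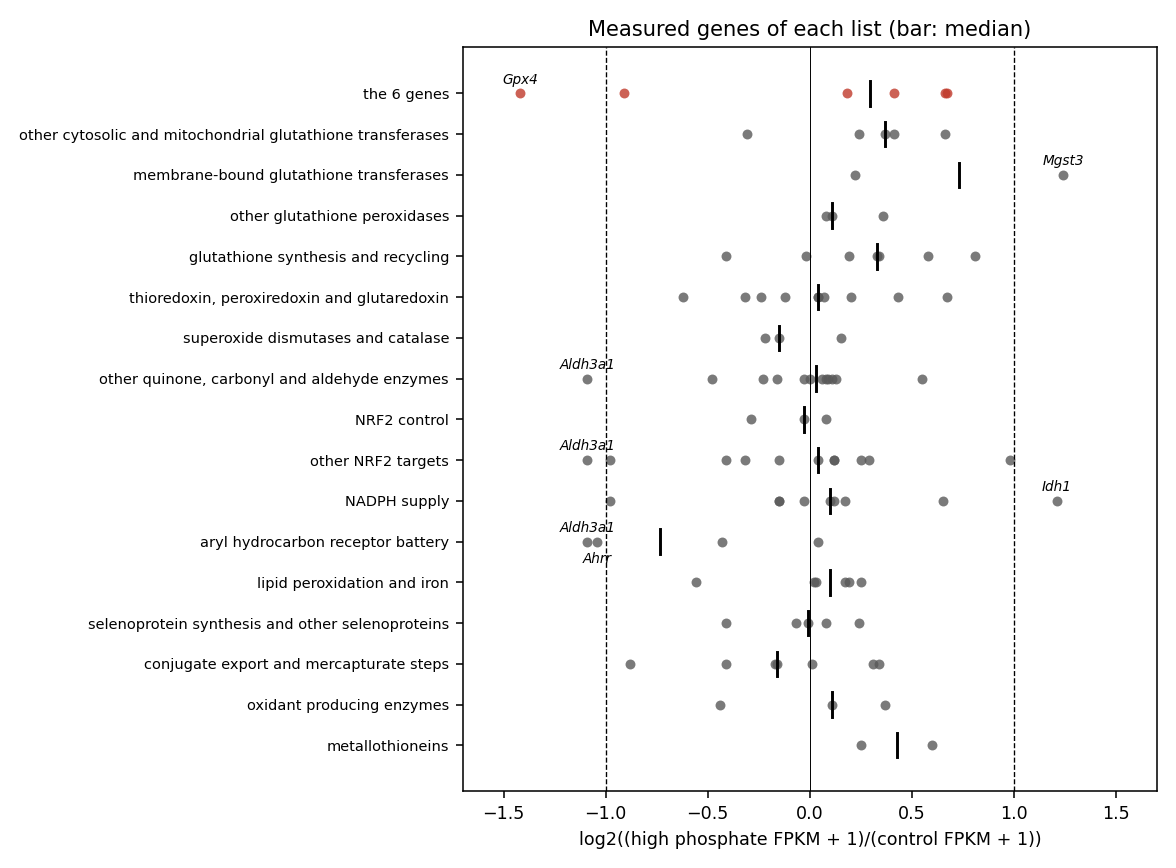
Log2 ratio of high phosphate over control FPKM (with 1 added to each) for the 6 genes (red) and for the measured genes of 16 related lists (grey), each point a gene, each bar a list median, with dashed lines at 2-fold. Gpx4, Mgst3, Idh1, Aldh3a1 and Ahrr lie beyond 2-fold, and a gene in several lists appears in each.

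Over all 16 lists, 118 of 220 distinct genes were listed and 82 measured, of which 50 were higher and 32 lower as deposited. Rescaling to the same sum turned this to 30 higher and 52 lower, where 32.2% of all measured genes were higher and 67.8% lower. The 4 genes at least 2-fold apart, Mgst3 and Idh1 higher and Aldh3a1 and Ahrr lower, were 4.88% of the 82, beside 2.63% of all measured genes. Of these, Idh1 passed the filter only through its high phosphate value, with 0.49 FPKM in the control. With at least 1 FPKM required in both libraries, 48 list genes were higher and 31 lower, and 3 were at least 2-fold apart. Nothing is read from these shares. The 4 transferases were higher under every rescaling, with a median log2 ratio of 0.53 as deposited and of 0.36 with equal FPKM sums.

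The listed FPKM summed to 346857 in the high phosphate library and 307622 in the control library. The label of the cells was compared with marker genes. Of 8 listed myoblast markers 3 were measured, and Myog, Myh3, Mymk, Chrna1 and Tnnt1 were under 0.5 FPKM in both libraries. Desmin (Des), an intermediate filament of muscle, had 153 FPKM in high phosphate and 129 FPKM in the control, and the myogenic factor Myod1 had 1.59 and 6.11 FPKM in the same libraries. All 4 listed cardiomyocyte markers, Nppa, Myh7, Pln and Ryr2, were under 1 FPKM in both libraries, as were the listed endothelial markers and those of hepatocytes, the cell type in which alpha class transferases are most abundant. Of 8 listed fibroblast markers 6 were measured and 5 were higher in high phosphate, with a median log2 ratio of 0.65. Their summed level was 4427 FPKM in high phosphate and 4021 FPKM in the control, and Pdgfra was at 0.00 in both. Most of that sum came from S100a4, the 1 measured fibroblast marker that was lower. S100a4 had 3249 FPKM in high phosphate and 3291 FPKM in the control (log2 ratio -0.02). The 1 measured macrophage marker, Cd68, had 1.38 FPKM in high phosphate and 1.06 FPKM in the control. Of 4 listed epithelial markers 1 was measured, the keratin Krt8, which had 247 FPKM in high phosphate and 140 FPKM in the control, while Epcam was at most 0.02 FPKM in either library. The part of these markers in the differences of the 6 genes was not tested, and a change in the share of a cell state cannot be told apart from a change of RNA per cell in bulk libraries.

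**Figure D5:**
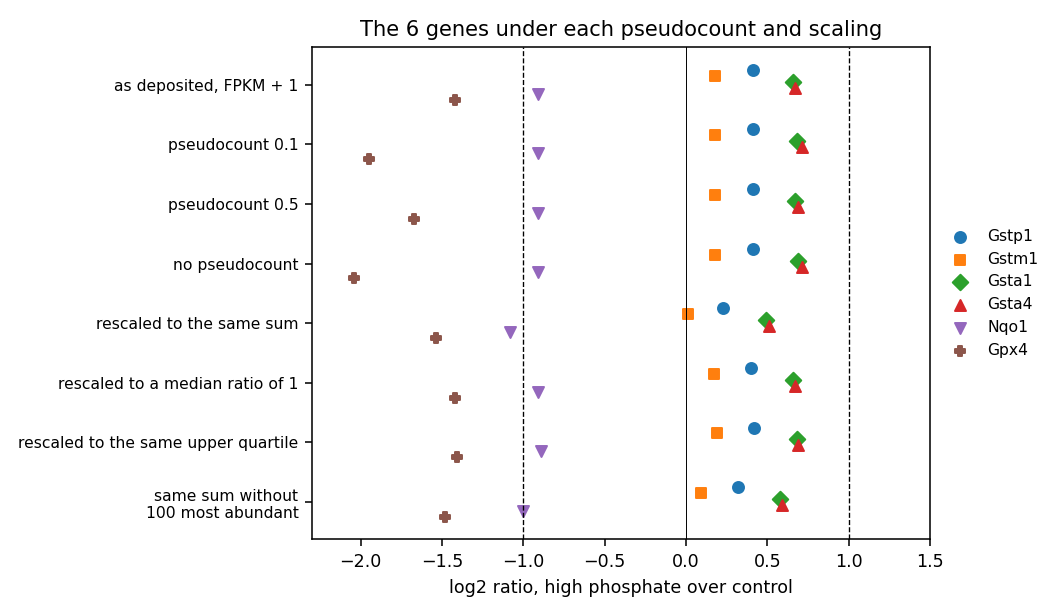
Log2 ratio of high phosphate over control for the 6 genes (symbols) under each pseudocount and each scaling of the libraries (rows), with dashed lines at 2-fold. The 4 transferases stay above 0, with Gstm1 as low as 0.01, Gpx4 stays beyond 2-fold, and Nqo1 runs from -0.89 to -1.08.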

How the data were processed

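RNA of H9c2 cells was sequenced in 1 high phosphate and 1 control library. The deposited values are FPKM made by the authors, per the file headers, with 2 decimals. Tools named in the submitters' processing notes are TopHat2 2.1.1, bcl2fastq, Cuffdiff and Cufflinks 2.2.1, with the rat build Rnor_6.0. Their roles, the annotation, strand setting, treatment of multiply mapped fragments and any scaling between libraries were not given in the sources used here. Depth is unknown, and no counting interval is given.

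Of 8039 entries, 236 had no usable identifier and were left out. They held 8.56% of the high phosphate and 8.20% of the control FPKM. Of the rest, 7746 matched a symbol in a RefSeq gene table for GRCr8, used for names and gene order only. The log2 ratio used a pseudocount of 1, for genes whose mean reached 1 FPKM. Higher or lower by 2-fold refers to this ratio. The 6 genes, the 16 gene lists and the 7 marker lists were chosen with earlier results of these data known. Named genes were taken from the 6 genes, of each list the 2 highest, the 2 lowest and the most abundant measured gene, the most abundant marker of each marker list, and for each of the 6 the 2 nearest genes. Genes adjacent to a transferase, other markers and Cyp1a1 were added after their values were seen. Genes of the lists that matched no usable identifier were named after that was known. Some genes that the rule selects are not reported here. Alternatives were pseudocounts of 0.1, 0.5 and none, 4 rescalings, 3 filters and a 1.5-fold threshold. The calculation was checked on simulated data. Python 3.11.15, numpy 2.4.6, pandas 2.3.3 and matplotlib 3.10.9 were used.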

Additional observations from a re-analysis of the deposited data

How the results depend on the processing

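Each of the 6 genes kept its direction under 7 alternative pseudocounts and scalings. The log2 ratio ranged from 0.01 to 0.19 for Gstm1, 0.23 to 0.42 for Gstp1, 0.49 to 0.69 for Gsta1, 0.51 to 0.71 for Gsta4, -2.04 to -1.41 for Gpx4 and -1.08 to -0.89 for Nqo1. Nqo1 passed 2-fold in 1 of them, rescaling to the same sum (-1.08), and fell just short of it with the sum taken without the 100 most abundant entries. The number of measured genes at least 2-fold apart was 115 as deposited, 213 with a pseudocount of 0.1, 217 with none, 49 from a mean of 5 FPKM, 68 with at least 1 FPKM in both libraries and 462 at 1.5-fold. As deposited 77 were higher and 38 lower, after rescaling to the same sum 57 and 57, and from a mean of 5 FPKM 41 and 8. Of the 82 measured genes of the lists, 50 were higher and 32 lower. After rescaling to the same sum 30 were higher and 52 lower, and without the filter 65 of the listed genes were higher and 50 lower. List medians changed sign under at least 1 alternative for 9 of 16 lists. Of the 82 measured list genes, 4 were at least 2-fold apart as reported, beside 2.63% of all measured genes. At 1.5-fold 13 of the 82 were apart, beside 10.6% of all measured genes. From a mean of 5 FPKM 1 list gene was at least 2-fold apart. With at least 1 FPKM in both libraries, which drops Idh1, 3 list genes were, beside 68 of all 4194 genes kept. The filters drop genes and the lower threshold adds them by construction, and rescaling to the same sum shifts every ratio down. No paired analysis was possible because each phosphate level had 1 library, and for the same reason no library could be left out. The unknown depth limits the values of Gpx4, Aldh3a1, Ahrr, Idh1 and Tkt in particular, since each was listed under 5 FPKM in both libraries. Low values also occurred among ribosomal protein genes. For example, Rpl28 had 1.79 FPKM in high phosphate and 1.81 FPKM in the control, where Rpl32 had 3357 and 2878 FPKM. Whether failed estimates lie behind low values such as those of Gpx4 and Tkt was not tested.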

Other observations

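Among measured genes with a symbol, those nearest to each of the 6 on log2(FPKM + 1) in both libraries were looked up. With 2 libraries such likeness means only a like level and a like difference. Nearest to Nqo1 was Id3, an inhibitor of basic helix-loop-helix factors, with 175 FPKM in high phosphate and 358 FPKM in the control at a distance of 0.088 log2 units. The next gene, the proton pump subunit Atp6v1f, was far off at 0.454. The 6 genes were chosen with their differences in view, so nothing is read from how close their nearest genes lay. Nearest to Gsta4 were Cenpa, the centromeric histone, with 25.6 FPKM in high phosphate and 15.3 FPKM in the control, and the cell cycle inhibitor Cdkn1b, with 27.1 and 15.5 FPKM in the same libraries. Gsta1 lay nearest to Arpc2, a subunit of the actin nucleating complex, and Rabggtb, and Gstm1 to Chp1 and Cibar1, all within 0.092. Nearest to Gstp1 were the ribosomal protein genes Rpl10 and Rps26, at 2414 and 2424 FPKM in high phosphate and 2009 and 2070 FPKM in the control. Gpx4 had no close match, with Bdh1, a ketone body dehydrogenase, at a distance of 0.279 and the adrenergic receptor gene Adra1b at 0.285.

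Gsta2 and Gsta5, which follow Gsta4 in gene order, had no entry of their own among the usable identifiers. An entry left out of the comparison carries an identifier made of the digits of Gsta2 followed by those of Gsta5, listed at 0.00 FPKM in high phosphate and 0.76 FPKM in the control. What this entry counts is not stated in the file.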
